A study of Danio rerio with 11 samples.

Results

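The data are transcriptomes of whole adult zebrafish brains, and the comparison here is between mutant brains that differ in the number their labels carry. The 9 mutant libraries come from 3 genotypes, csf1ra-/-, csf1ra-/-;b+/- and csf1ra-/-;b-/-, called here single mutants, csf1rb-heterozygous mutants and double mutants, and each genotype has 1 library of number 1, 1 of number 2 and 1 of number 3. The 3 libraries numbered 2 were compared with the 6 libraries numbered 1 and 3, with genotype as a block, over all 16536 genes of the deposited table. These 9 are part of the 11 libraries of the series, and the 2 control libraries were not used. Every group has a TLF x AB background, an age label of about 8 months and the mpeg1-GFP line, whose transgene labels macrophages and microglia, and all 9 libraries are from csf1ra-/- fish. csf1ra and csf1rb encode the zebrafish receptors for colony-stimulating factor 1, on which macrophages and microglia depend.

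Per the labels' protocols, brains were removed, left on ice in trypsin and then snap-frozen, and cDNA was amplified before Tn5 cut it for sequencing. The labels do not say what the number stands for, nor whether libraries of 1 genotype come from separate fish; the p-values therefore cover the spread among these libraries, which may be technical. Values are CPM, the reads of a gene per 1e6 reads of its library as scaled by the authors. Differences are number 2 minus the mean of numbers 1 and 3 on the log2(CPM + 1) scale, which understates the change of genes with few reads. A gene was called when its adjusted p was under 0.05 by limma with Benjamini-Hochberg adjustment over all genes, and a p given for 1 gene is from that fit unless said otherwise.

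A brain works through neurons that fire by opening and closing voltage-gated channels in their membranes, and that talk to each other through transmitter receptors at synapses. Axons are wrapped in myelin by oligodendrocytes, radial glia take up transmitters and support neurons, and blood vessels with tight junctions form the blood-brain barrier. Growing and adult neurons also carry guidance and adhesion molecules, among them semaphorins, their plexin receptors and protocadherins. Because the samples were bulk tissue, fewer cells of a type and less RNA per cell cannot be told apart in any value below.

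Brain markers were present in every library. snap25a, a synaptic protein of neurons, stood between 2949 and 3941 CPM, mbpa, a myelin protein, between 3625 and 4921 CPM, gad1b, the enzyme that makes GABA, between 707 and 837 CPM, and gfap of radial glia between 65.2 and 103 CPM. None of these 4 passed the test, nor did the neuronal gene elavl3. It stood at 125 CPM in the double mutant library numbered 1 and at 329 to 458 CPM in the rest. Its differences within single, csf1rb-heterozygous and double mutants were -0.27, -0.45 and 0.68. In contrast, slc17a6b, a vesicular glutamate transporter, fell in the number 2 libraries, as described below. Reads per library ran from 12.8 to 15.2 M and overlapped between the numbers. Genes of the mitochondrial genome took 8.45%, 8.56% and 7.60% of the CPM in the single, csf1rb-heterozygous and double mutant libraries numbered 2 and 6.56% to 7.88% in the other 6 (exact permutation test within genotypes, two-sided, p = 0.037, the smallest that 27 arrangements allow; adjusted p = 0.469 over 38 library measures). The number 2 library had the highest share within each genotype, and its part in the results below was not tested.

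The libraries numbered 2 were set apart by genes that were low in them. Of the 16536 genes, 1256 (7.6%) were called lower and 54 (0.327%) higher. That these libraries stood apart was known from earlier results of these data when the comparison was chosen. The p-values do not account for that choice. Among the lower ones, 1032 fell by at least 0.5 log2 units and 256 by at least 1, with a median difference of -0.72. Among the higher ones, the median was 0.31, 7 rose by at least 0.5 log2 units and 0 by at least 1. The 3 libraries numbered 2 all lay below the other 6 for 1545 genes (9.34%) and all above them for 874 genes (5.29%). The median over all genes was 0.02, and the 10th and 90th percentiles were -0.45 and 0.22, so the longer tail was on the low side.

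Against each of the other numbers, most calls were lower when all 9 libraries shared 1 fit. With number as 3 levels in the fit, 1079 genes (6.53%) were called between numbers 2 and 1, of which 945 were lower and 134 higher in number 2. Between numbers 2 and 3 there were 901 calls (5.45%), of which 862 were lower and 39 higher. A fit of the 6 libraries numbered 2 and 3 alone, with 2 residual degrees of freedom, called 4 genes, 2 lower and 2 higher, none of them among the 1310 called in all, and the same fit for numbers 2 and 1 called 805, of which 750 were lower. These comparisons share the number 2 libraries. Between numbers 3 and 1, which leave those libraries out, 62 genes (0.375%) were called, 55 of them higher in number 3. None of the 62 was among the 1310 genes called for number 2. The number 2 fit pools numbers 1 and 3, so a large difference between them adds to a gene's spread. That works against a call, and the lack of overlap is partly set by the design. At an unadjusted p under 0.05, 1243 genes passed between numbers 3 and 1.

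Within each genotype the library numbered 2 had the most genes far below the others, and the csf1rb-heterozygous one had the most of all. In that library 617 genes lay at least 1 log2 unit below both other libraries of the genotype, against 160 in the single mutant library numbered 2 and 138 in the double mutant one. In the 6 other libraries this count ran from 17 to 74. The opposite count, genes at least 1 log2 unit above both others, was 37, 2 and 18 in the single, csf1rb-heterozygous and double mutant libraries numbered 2, and 16 to 91 in the other 6. Over the 1256 genes called lower, which the same fit chose, the median difference was -0.64 within single mutants, -0.97 within csf1rb-heterozygous mutants and -0.54 within double mutants, and 76.8% of them had their largest fall in the csf1rb-heterozygous library. Without that library 340 genes were called, and without the whole csf1rb-heterozygous genotype 83; without the single mutant library numbered 2 there were 714 calls and without the single mutants 430. Leaving out the double mutant library numbered 2 gave 1318 calls and leaving out the double mutants 1292, totals close to the 1310 with them. The genes were not all the same, as 993 and 982 of these calls were among the 1310. All 1310 genes kept their direction in each of these fits, which share libraries with the fit that chose the genes. In each genotype the number 2 library was already beyond both others for 98.3% of the lower genes and 100% of the higher ones. The kept direction was therefore largely set by that choice.

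**Figure D1:**
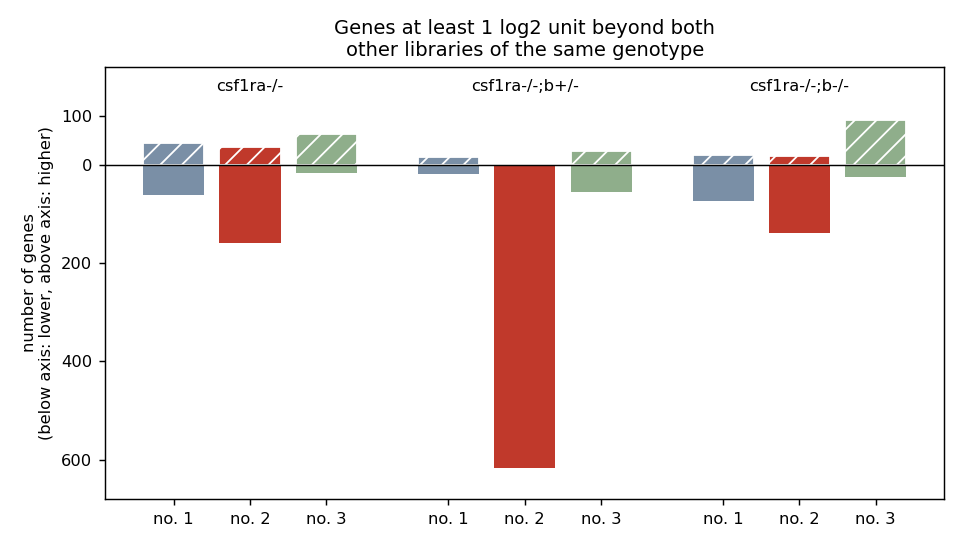
Number of genes in each mutant library that were at least 1 log2 unit below (solid bars, downward) or above (hatched bars, upward) both other libraries of the same genotype, on the log2(CPM + 1) scale, with libraries coloured by number. The number 2 library has the longest downward bar in each genotype, with 160, 617 and 138 genes.

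Across the 16536 genes, a library's deviation from the mean of its genotype was most alike between the single and csf1rb-heterozygous libraries numbered 2, with a Pearson correlation of 0.64, against 0.16 between the single and double mutant libraries and 0.31 between the csf1rb-heterozygous and double mutant ones. For number 1 the same 3 values were 0.37, 0.03 and 0.26, and for number 3 they were 0.31, 0.17 and 0.06. The deviations within a genotype cancel out, so a fall shared by the number 2 libraries also raises the values of numbers 1 and 3. The values of the 3 numbers are therefore not independent of each other. These are descriptions across genes, which are not independent replicates.

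The fall reached genes of middling level more often than the rarest or the most abundant ones. Of genes with a mean under 2 CPM, 2.72% were called lower, of those from 5 to 10 CPM 10.6%, of those from 10 to 20 CPM 10.3%, and of those of 100 CPM or more 2.92%. The median difference over all genes of a class ran from -0.13 in the lowest class to 0.08 in the highest. Level thus moved with the result, and its part in it was not tested.

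**Figure D2:**
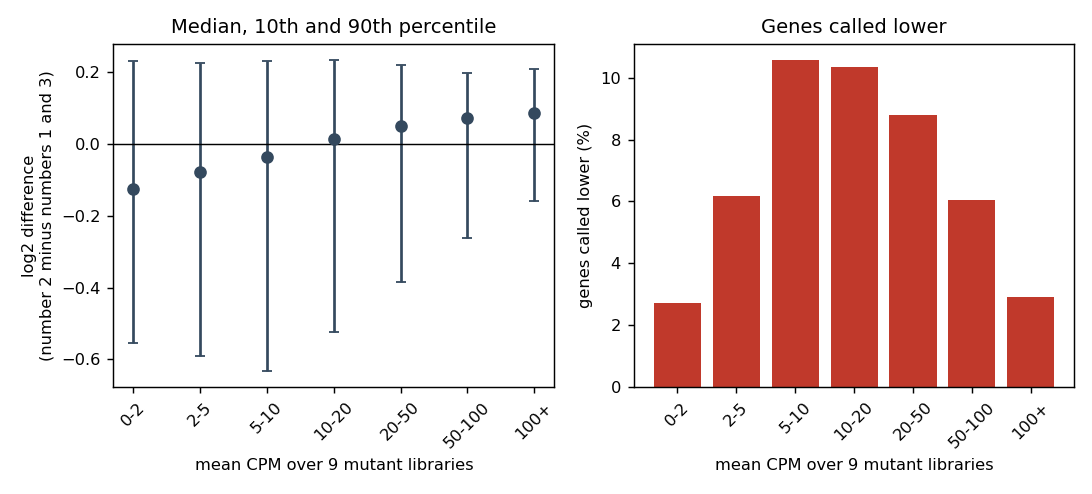
Left, the median log2 difference (points) with the 10th and 90th percentiles (bars) over all genes of each class of mean CPM; right, the share of each class called lower in the libraries numbered 2. The share is highest from 5 to 20 CPM, at 10.6% and 10.3%, and the 10th percentile comes closest to 0 in the class of 100 CPM or more.

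The largest falls are described one by one, with the number 2 libraries first. The rule that named them kept only called genes with the number 2 library beyond both others in each genotype. Of all 1256 genes called lower, 1103 (87.8%) had groups that did not overlap, so the lack of overlap is a description only. zgc:158689, for which no role is given here, stood at 7.91, 3.35 and 6.33 CPM in the single, csf1rb-heterozygous and double mutant libraries numbered 2, and at 21.1 to 29.1 CPM (median 24.8) in the other 6 libraries. The number 2 libraries were all below the rest, and the log2 difference was -1.97 (SE 0.20, adjusted p = 0.00276). arf3b, a small GTPase of vesicle traffic, stood at 7.84, 3.76 and 10.6 CPM against 20.2 to 30.3 CPM (median 27.13), a log2 difference of -1.79 (SE 0.23, adjusted p = 0.00347). Here too the groups did not overlap, and the csf1rb-heterozygous library was the lowest. slc12a5b, a copy of the neuronal potassium-chloride cotransporter that keeps chloride low so that GABA can inhibit, stood at 10.5, 3.28 and 8.63 CPM against 15.6 to 34.5 CPM (median 25.0), a log2 difference of -1.72 (SE 0.31, adjusted p = 0.00814). Its other copy, slc12a5a, fell as well, by 0.93 (SE 0.22, adjusted p = 0.0266).

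bin1a, a protein that bends membranes, stood at 5.71, 2.58 and 9.63 CPM against 14.4 to 22.8 CPM (median 19.8), a log2 difference of -1.70 (SE 0.26, adjusted p = 0.00491). PDE2A, a phosphodiesterase that breaks down cyclic nucleotides, stood at 6.23, 5.79 and 14.0 CPM against 21.2 to 31.9 CPM (median 26.4), with a log2 difference of -1.59 (SE 0.20, adjusted p = 0.00315). lifra, a receptor of the leukaemia inhibitory factor family, stood at 2.2, 0.697 and 3.95 CPM against 6.41 to 11.8 CPM (median 9.32), and its log2 difference was -1.71 (SE 0.30, adjusted p = 0.00785). In all 3 the groups did not overlap and the csf1rb-heterozygous library was the lowest. The other large falls by the rule for named genes were mtss1lb (-1.80), tmem86a (-1.71), tet1 (-1.68), scai (-1.61), si:dkey-250d21.1 (-1.59) and golga7bb (-1.59). Of these 12 genes, 11 were called whichever single library was left out, and golga7bb in 7 of 9 such fits.

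**Figure D3:**
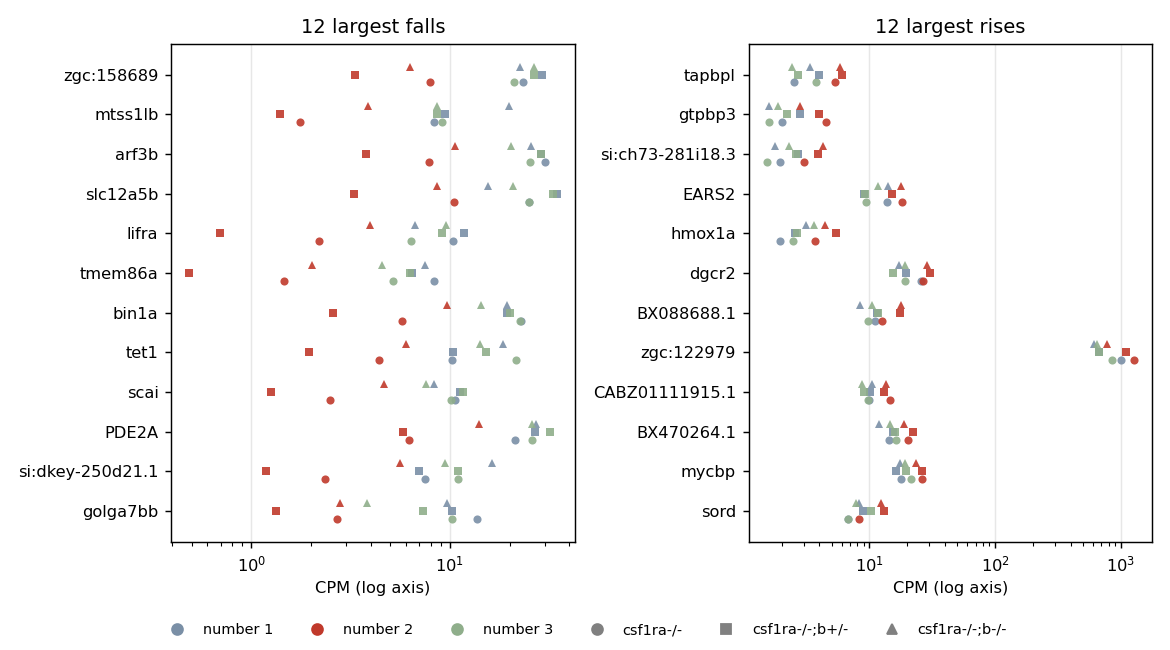
CPM of the 12 largest falls (left) and 12 largest rises (right) in each of the 9 mutant libraries, on log axes; colour gives the number and marker shape the genotype. In the left panel the number 2 libraries lie to the left of all others for each gene, for example at 3.35 to 7.91 CPM for zgc:158689, while in the right panel the separation is smaller and zgc:122979 and sord overlap between the groups.

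Voltage-gated ion channels were the list with the highest share of falls. Of 62 members, 28 (45.2%) were called lower, beside 7.6% of all genes, 0 were called higher, and 49 had a difference below 0. Their median difference was -0.35, beside 0.02 over all genes, and the median between numbers 3 and 1 was 0.01. By channel type, 4 of 9 sodium, 13 of 26 potassium and 9 of 24 calcium channel genes of the list were called lower. Wider families, defined by symbol and chosen after the values were seen, had lower shares for potassium and calcium channels. There, 24 of 80 potassium (30%), 13 of 40 calcium (32.5%) and 5 of 11 sodium channel genes (45.5%) were called lower. The list's median was -0.36 within single mutants, -0.62 within csf1rb-heterozygous mutants and -0.24 within double mutants. Without the csf1rb-heterozygous library numbered 2, 8 members were called lower, beside 338 of all 16536 genes. Without the single mutant one there were 15, beside 708 of all genes. The median was then -0.29 and -0.38, in that order.

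Among sodium channels, scn8ab, a copy of the gene for a channel that starts action potentials at the axon's first segment, stood at 69.9, 56.5 and 90.2 CPM in the single, csf1rb-heterozygous and double mutant libraries numbered 2 and at 100 to 124 CPM (median 110) in the other 6. Its log2 difference was -0.63 (SE 0.11, adjusted p = 0.00845), and the groups did not overlap. Its copy scn8aa fell by 0.53, scn1lab by 0.49 and scn2b, an accessory subunit, by 1.2. scn4ba had a difference of -0.98 (SE 0.31, adjusted p = 0.0856) and was not called; its double mutant library stood at 10.2 CPM, inside the range of the others.

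Among potassium channels, kcnq3, a subunit of the M-current channels that damp repeated firing, stood at 7.91, 4.04 and 8.12 CPM against 13 to 18.1 CPM (median 15.0). Its log2 difference was -1.12 (SE 0.17, adjusted p = 0.00504) and the groups did not overlap. Its partner subunit kcnq2b fell by 1.12, whereas the other copy, kcnq2a, had a difference of 0.13 and was not called. kcnh7 of the ether-a-go-go-related family stood at 13.8, 10.5 and 16.1 CPM against 21.2 to 33.8 CPM (median 27.3), a log2 difference of -1.0 (SE 0.14, adjusted p = 0.00392). The shaker- and shaw-type channels kcna4, kcna1b, kcna1a and kcnc3b fell by 1.11, 1.07, 0.78 and 1.05. Potassium channel genes that were not called include kcnc1a (-0.10), kcnc2 (-0.10), kcnd2 (-0.29) and kcnb2 (-0.29).

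Among calcium channels, cacnb4a, an accessory beta subunit, stood at 2.42, 1.05 and 3.52 CPM against 5.78 to 9.73 CPM (median 7.36). Its log2 difference of -1.46 (SE 0.22, adjusted p = 0.00512) was the lowest of the list. cacna1da, a pore subunit of L-type channels, stood at 49.2, 32.4 and 60.3 CPM against 79.3 to 90.9 CPM (median 89.2), a log2 difference of -0.90 (SE 0.15, adjusted p = 0.00586). The L-type subunit cacna1c fell by 0.93, the R-type subunit cacna1eb by 1.07, the N-type subunit cacna1bb by 0.79 and the P/Q-type subunit cacna1ab by 0.78. The other calcium channel genes included the T-type subunits cacna1g (-0.04) and cacna1ha (-0.11), and the AMPA receptor partners cacng2a (0.17), cacng2b (0.23) and cacng3b (0.17), none of which was called. The pacemaker channel hcn4 fell by 0.90, and hcn2b had a difference of 0.19.

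**Figure D4:**
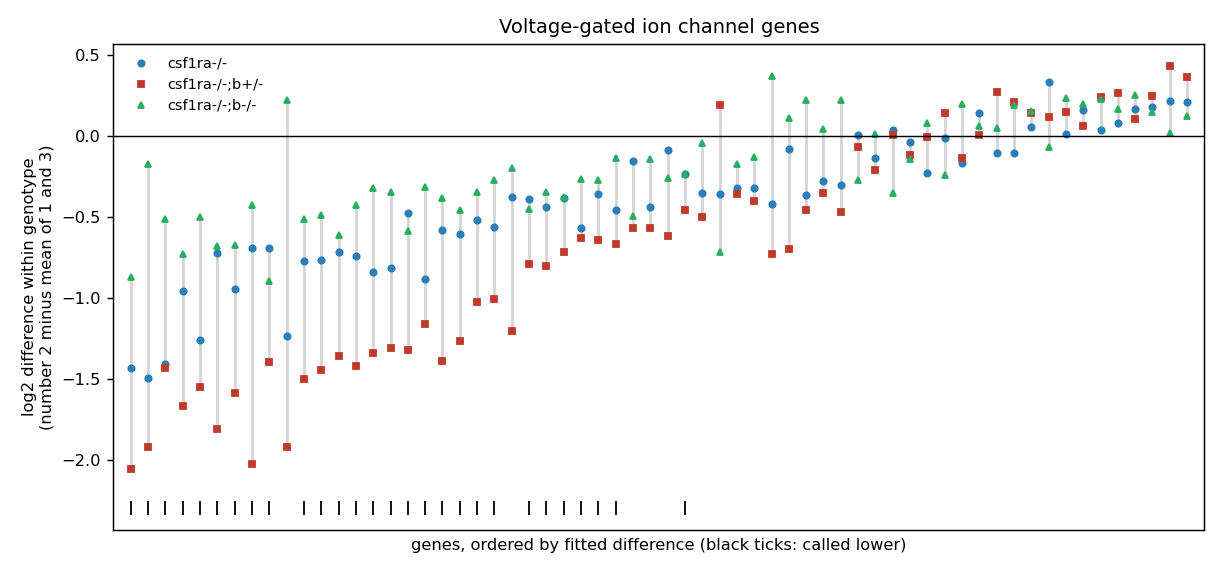
Log2 difference of each of the 62 voltage-gated ion channel genes within each genotype (number 2 minus the mean of numbers 1 and 3, log2(CPM + 1) scale), ordered by the fitted difference; grey lines join the 3 genotypes and the black ticks under the points mark called genes. The csf1rb-heterozygous points are the lowest for most called genes, and 49 of the 62 genes have a fitted difference below 0.

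Transmitter receptors and synaptic genes were split. grm1b, a metabotropic glutamate receptor, fell by 1.0 and gria1b, an AMPA receptor subunit, by 0.64. camk2b2, a subunit of the kinase that tunes synapses, stood at 24.0, 19.6 and 27.9 CPM against 46.1 to 56.5 CPM (median 50.9), a log2 difference of -1.08 (SE 0.10, adjusted p = 0.0025), and camk2a fell by 0.36. For these 4 genes the groups did not overlap. As lists, pan-neuronal and synaptic genes had 3 of 45 members called lower (6.67%) and 2 higher with a median of 0.06, excitatory neuron genes 3 of 35 lower (8.57%) and 1 higher with a median of -0.06, and inhibitory neuron genes 3 of 36 lower (8.33%) and 1 higher with a median of 0.09, beside 7.6% lower among all genes. Among all genes 0.327% were called higher. The called rises were nefla, a neurofilament subunit (0.25), neurod6b, a transcription factor of forebrain excitatory neurons (0.25), and the calcium buffer pvalb7 (0.23). So was stmn2b, a tubulin-binding protein of growing axons (0.22). With 1 library left out in turn, nefla kept its call in 0 of 9 fits, and neurod6b and pvalb7 in 1 each. The falls of camk2b2, grm1b, camk2a and gria1b kept theirs in 9, 9, 8 and 7 of these fits.

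Duplicated copies of a neuronal gene shared a call in some pairs and not in others. slc17a6a, a vesicular glutamate transporter, stood at 76.9, 56.0 and 82.7 CPM against 113 to 145 CPM (median 130), a log2 difference of -0.86 (SE 0.12, adjusted p = 0.00392), while its copy slc17a6b fell by 0.32 (SE 0.06, adjusted p = 0.0131). gad1a, a GABA-synthesizing enzyme, fell by 0.82 (SE 0.17, adjusted p = 0.0138), while gad1b had a difference of 0.05 (SE 0.06, adjusted p = 0.695). Whether the copies differ from each other was not tested. Among 1903 pairs of genes whose symbols differ only in a final a or b, 58 had both copies called lower and 313 had 1 copy called lower. Over all copies of these pairs 11.3% were called lower, against 27.04% of copies whose partner was called lower and 9.27% of those whose partner was not. The differences of the copies had a Pearson correlation of 0.26 across pairs, which is a description, since all pairs share the same 9 libraries.

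Gene families defined by the start of the symbol were chosen after the values were seen and are given as counts. Of plexins and semaphorins, the receptors and ligands that steer axons, 17 of 41 were called lower (41.5%) and 0 higher, beside 7.6% lower among all genes. plxnb3 stood at 4.25, 2.58 and 6.47 CPM against 10.2 to 15.0 CPM (median 12.6), a log2 difference of -1.36 (SE 0.18, adjusted p = 0.00347), and plxna2 (-1.12), sema6ba (-1.29) and sema3ab (-1.07) fell as well. Receptor tyrosine phosphatases had 7 of 25 lower, metabotropic glutamate receptors 5 of 13, GABA-A receptors 4 of 17, synaptotagmins 5 of 21, phosphodiesterases 6 of 28 and solute carriers 41 of 304 (13.5%). Other surface families lay nearer the share of all genes: 3 of 34 AMPA, kainate and NMDA receptors (8.82%), 2 of 40 leucine-rich repeat adhesion proteins, 2 of 23 adhesion G protein-coupled receptors and 2 of 17 classical cadherins were called lower. Among solute carriers, the transporters slc6a17 and slc6a8, the latter a carrier of creatine, fell by 1.48 and 1.38. In contrast, 7 of 181 zinc finger genes named znf were called lower (3.87%), and 0 were called lower among 76 mitochondrial ribosomal proteins, 47 complex I subunits, 42 proteasome subunits, 27 mediator subunits and 24 spliceosomal proteins.

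Protocadherins, cell-surface proteins by which neurons recognize each other, had 7 of 34 members called lower (20.6%), beside 7.6% of all genes, and a median of -0.29. pcdh2ac stood at 39.6, 35.3 and 49.2 CPM against 63.1 to 74.5 CPM (median 68.4), a log2 difference of -0.73 (SE 0.09, adjusted p = 0.00315), and pcdh7b, pcdh9 and pcdh2g5 fell by 0.66, 0.65 and 0.47. Clustered protocadherins share exons and near-identical sequence, so reads split between them are uncertain. The protocadherins pcdh10a, pcdh18b and pcdh19 had differences of 0.20, 0.25 and 0.08 and were not called.

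Of 37 endothelial genes, which line blood vessels, 8 were called lower (21.6%) and 0 higher, beside 7.6% lower among all genes; 32 had a difference below 0, and the median was -0.29. The summed CPM of the list was 643, 549 and 483 in the single, csf1rb-heterozygous and double mutant libraries numbered 2 and 641 to 788 in the other 6 (exact permutation test within genotypes, two-sided, p = 0.037, the smallest possible; adjusted p = 0.469 over 38 measures). The number 2 library was the lowest within each genotype, though the single mutant one lay just inside the range of the others. slc7a5, an amino acid transporter of the blood-brain barrier, stood at 9.96, 6.34 and 8.05 CPM against 14.7 to 20.2 CPM (median 18.1), a log2 difference of -1.06 (SE 0.14, adjusted p = 0.00347). kdrl, a receptor for vascular endothelial growth factor, stood at 32.6, 31.5 and 26.2 CPM against 41.6 to 50.7 CPM (median 44.3), a log2 difference of -0.57 (SE 0.08, adjusted p = 0.00384). The groups did not overlap for either gene.

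Other genes of the endothelial list that fell were the tight-junction gene cldn5a (-1.05), the glucose transporter slc2a1a (-1.13) and the scavenger receptor stab1 (-0.89). So did kdr (-0.84), flt1 (-0.41) and SPOCK1 (-0.94). Of the list, slc2a1a and slc7a5 are also made outside vessels, and cldn5a is also in the choroid plexus list. Whether the other members are particular to vessels was not tested. The vessel genes cdh5 (-0.25), tek (-0.14), pecam1 (0.01) and egfl7 (0.03) were not called. The endothelial median was -0.41 within double mutants, -0.27 within csf1rb-heterozygous mutants and -0.23 within single mutants, an order unlike that of the channel genes. Without the csf1rb-heterozygous library numbered 2, 3 members were called, beside 340 of all 16536 genes. Of pericyte and smooth muscle genes, 4 of 20 were called lower (20%), beside 7.6% of all genes. Among them, notch3 (-0.56) is also in the radial glia list and cspg4 (-0.72) in the list of oligodendrocyte precursors. Of meningeal and matrix genes, 6 of 51 were called lower (11.8%), among them the basement membrane collagens col4a1 (-0.77) and col4a2 (-0.93).

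Beside 7.6% of all genes called lower, the glial and immune lists described here had shares from 2.17% to 12.5%. In oligodendrocytes, myrf, the transcription factor that turns on myelin genes, stood at 22.9, 24.1 and 22.9 CPM against 36.7 to 52.3 CPM (median 45.9), a log2 difference of -0.92 (SE 0.09, adjusted p = 0.0025). The 3 number 2 libraries were close to each other and below all others. The RNA-binding protein qkib fell by 0.87, aspa, an enzyme that splits N-acetylaspartate, by 0.88 and mag, a myelin adhesion protein, by 0.29 (adjusted p = 0.0486 by limma and 0.0548 by edgeR), while the list as a whole had 4 of 32 called (12.5%) and a median of 0.07. Of radial glia and astroglia genes 3 of 35 were called lower (8.57%, near the share of all genes), among them the GABA transporter slc6a11b (-0.54). Of 46 microglia and macrophage genes, 1 was called lower, itgb2 (-0.62, SE 0.15, adjusted p = 0.036). A difference below 0 was seen in 36, beside 7634 of all 16536 genes, and the median was -0.23. That median was -0.26 within single mutants, 0.05 within csf1rb-heterozygous mutants and -0.37 within double mutants. Between numbers 3 and 1 it was 0.21. The summed CPM of that list was 329 to 688 in the number 2 libraries and 411 to 950.5 in the others, and overlapped.

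Genes of chromatin regulation contained some of the largest falls although the list's median was 0.07. Of 56 members, 9 (16.1%) were called lower, beside 7.6% of all genes, among them enzymes that act on DNA methylation or histones. tet1, which oxidizes methylated cytosine, stood at 4.39, 1.95 and 6.04 CPM against 10.3 to 21.6 CPM (median 14.7), a log2 difference of -1.68 (SE 0.24, adjusted p = 0.00414). The groups did not overlap. The DNA methyltransferases dnmt3aa and dnmt3ab fell by 1.12 and 0.39, the deacetylases hdac4 and hdac5 by 1.02 and 0.93, the demethylase kdm6bb by 0.72, and tet3 and tet2 by 0.47 and 0.46. The histone and high-mobility-group genes of the list, such as h1f0 (0.15), hmgb1a (0.16) and h2afvb (0.25), were not called.

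Energy and stress lists were mixed. Of 45 hypoxia and glycolysis genes, 7 (15.6%) were called lower, beside 7.6% of all genes, with a median of 0.08. They were the oxygen sensor egln2 (-1.13), the hypoxia-inducible factors epas1a (-0.58) and epas1b (-0.53), the mitophagy receptor bnip3la (-0.84), the glucose transporters slc2a1a and slc2a1b (-1.13 and -0.66) and the glycolytic enzyme pfkla (-0.67). Of these, epas1b stood at 51.6, 47.0 and 46.7 CPM against 61.5 to 77.8 CPM (median 70.6). Most glycolytic enzymes lay slightly above 0, such as gapdh (0.19), aldoca (0.20) and pgk1 (0.15), none of them called. In lipid synthesis, srebf1, a master transcription factor, fell by 0.83 and its target fasn, fatty acid synthase, by 0.42. They were the only 2 of 36 genes called in the cholesterol synthesis list (5.56%), whose median was -0.05. The clock genes clocka and tefb fell by 0.87 and 0.65 among 4 of 42 circadian genes called lower (9.52%), and the mineralocorticoid receptor nr3c2 by 0.90.

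Activity and stress response genes showed few calls. Of 57 immediate early genes, which neurons switch on within minutes of firing, 1 rose, npas4b, and 1 fell, zfp36l1a, or 1.75% each. Among all genes 0.327% were called higher and 7.6% lower. The list median was 0.18, beside 0.02 over all genes, and 12 of the 57 had a difference below 0. Within single, csf1rb-heterozygous and double mutants the median was 0.13, 0.29 and 0.16, and between numbers 3 and 1 it was 0.09. The 57 genes share the same 9 libraries and are not independent. npas4b stood at 114, 104 and 70.6 CPM against 54.4 to 107 CPM (median 73.1), a log2 difference of 0.32 (SE 0.08, adjusted p = 0.037). The groups overlapped across genotypes, although the number 2 library was the highest within each, and the call held in 3 of the 9 fits that leave out 1 library. Of 40 heat shock and chaperone genes, 2 (5%) fell, the heat shock factor hsf1 (-0.54) and dnajb2 (-0.61), a share under that of all genes. Of 35 genes of the unfolded protein response 1 rose: atf4a, a transcription factor of the integrated stress response, stood at 190, 168 and 138 CPM against 116 to 145 CPM (median 126), a log2 difference of 0.36 (SE 0.07, adjusted p = 0.0131).

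The genes called higher were few and their changes small. tapbpl, a peptide editor of MHC class I, stood at 5.27, 6.0 and 5.82 CPM against 2.41 to 3.97 CPM (median 3.04), a log2 difference of 0.71 (SE 0.17, adjusted p = 0.028). EARS2, which charges mitochondrial tRNA with glutamate, stood at 18.1, 15.1 and 17.9 CPM against 9.12 to 14.0 CPM (median 10.6), a log2 difference of 0.58 (SE 0.13, adjusted p = 0.0203). gtpbp3, which modifies mitochondrial tRNA, rose by 0.66 and hmox1a, the enzyme that degrades haem, by 0.57 (SE 0.15, adjusted p = 0.0483 by limma and 0.0523 by edgeR). In these 4 genes the number 2 libraries lay above all others. The rule that named them required the number 2 library beyond both others in each genotype. Of all 54 genes called higher, 45 (83.3%) had groups that did not overlap. sec61a1, the channel through which proteins enter the endoplasmic reticulum, and srprb, the receptor subunit that docks ribosomes there, rose by 0.28 and 0.36. None of the 54 genes was called in all 9 fits that leave out 1 library, whereas 317 of the 1256 lower genes were.

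Ribosomal and respiratory lists had medians above that of all genes, with few calls. All 90 cytosolic ribosomal genes had a difference above 0, with a median of 0.22, beside 0.08 over all genes of 100 CPM or more. Of the 90, 2 were called higher (2.22%, beside 0.327% of all genes). They were rps15a (0.30) and rpl34 (0.23, adjusted p = 0.0483 by limma and 0.0525 by edgeR). For 28 of the 90 the number 2 libraries all lay above the other 6, beside 5.29% of all genes. The 90 genes are measured in the same 9 libraries and are not independent. The ribosomal median was 0.28 within single mutants, 0.30 within csf1rb-heterozygous mutants and 0.09 within double mutants, and 0.15 between numbers 3 and 1. Of 84 nuclear genes of the respiratory chain, 82 had a difference above 0, the median was 0.20 and 1 (1.19%), cox6b1 (0.26), was called. For 25 of the 84 the number 2 libraries all lay above the other 6. With 1 library left out in turn, rps15a kept its call in 4 of 9 fits, and rpl34 and cox6b1 in 0. The 13 mitochondrial genome genes had a median of 0.17 and 38 proteasome genes 0.14, with 0 called in either by limma. When plain library totals replaced the authors' scaling, the ribosomal median was 0.19 and 0 of the 90 genes were called.

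**Figure D5:**
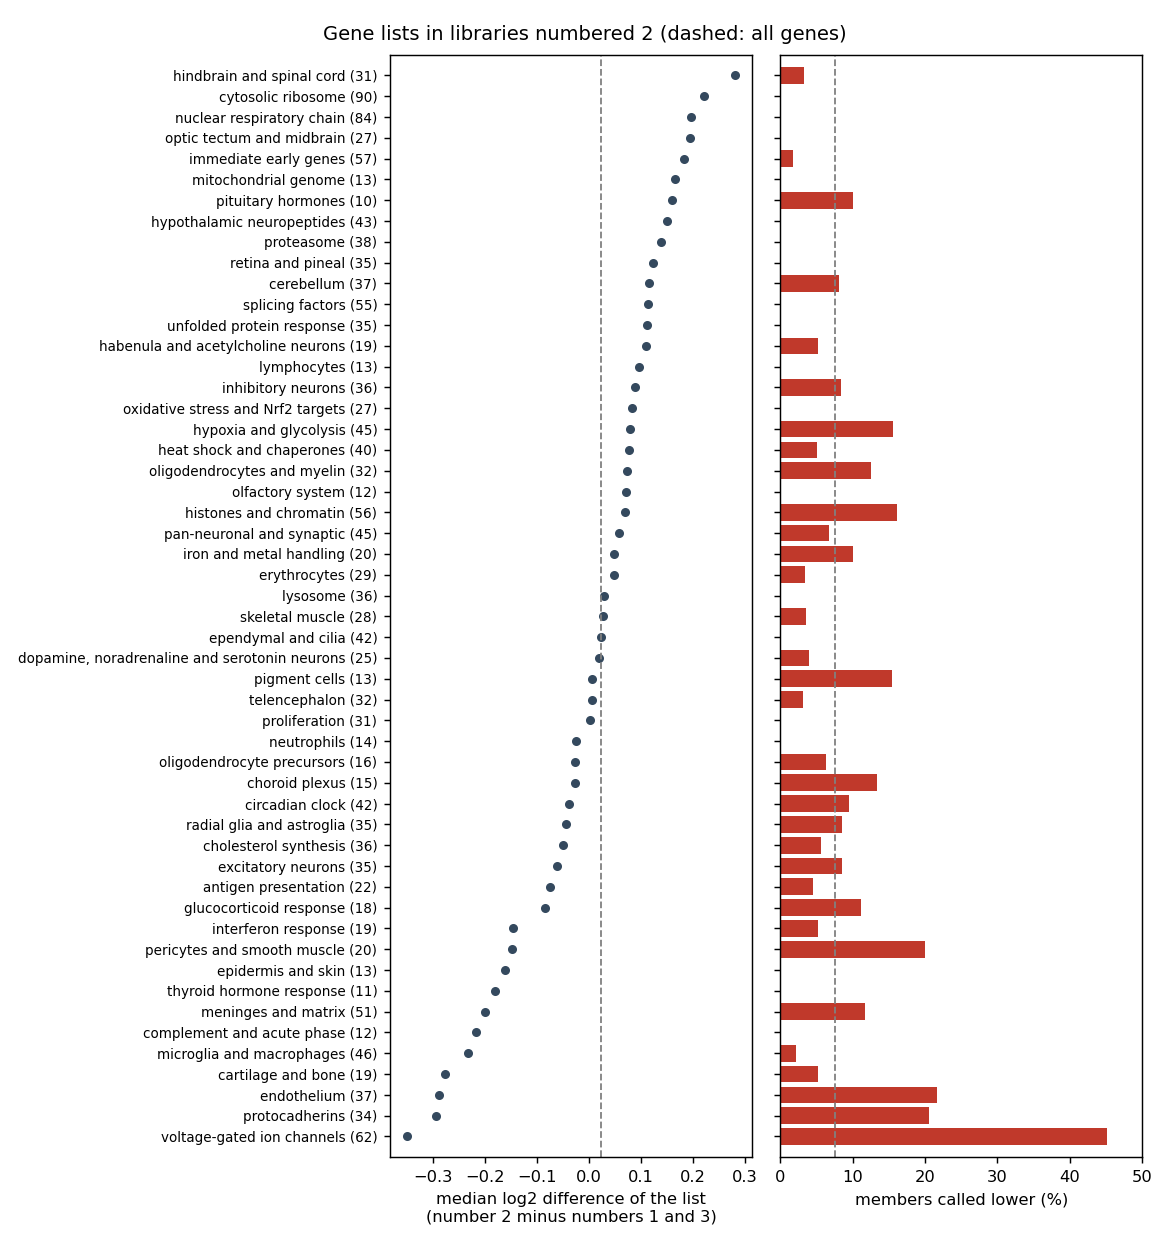
Median log2 difference (left) and share of members called lower (right) for each gene list with at least 10 genes in the table, number of genes in brackets, with dashed lines at the values of all genes (0.02 and 7.6%). Voltage-gated ion channels are at the bottom left with a median of -0.35 and 45.2% called lower, and ribosomal and respiratory genes lie near the top with 0 called lower.

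In the lists of brain regions described here, the share called lower was near or under the 7.6% of all genes. Hindbrain and spinal cord genes had the highest list median, 0.28, with 1 of 31 members called lower and 0 higher, and a median of -0.26 between numbers 3 and 1. The summed CPM of 27 optic tectum and midbrain genes was 1815, 2022 and 2144 in the single, csf1rb-heterozygous and double mutant libraries numbered 2 and 1661 to 1797 in the other 6 (exact permutation test within genotypes, two-sided, p = 0.037, the smallest possible; adjusted p = 0.469), with 0 members called by limma. Cerebellar genes had 3 of 37 called lower (8.11%) and 2 higher (5.41%, beside 0.327% of all genes). Retina and pineal genes had medians of opposite sign by genotype, 1.67 within single mutants, 0.50 within csf1rb-heterozygous mutants and -1.68 within double mutants, and 0 of 35 were called. Their summed CPM was 743.5, 501 and 411 in the number 2 libraries and 340 to 694 in the others, and the ranges overlapped.

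The number 2 difference itself was compared between genotypes with an interaction test. Each genotype has a single library numbered 2, so the test cannot tell a genotype from a single library. Only 1 gene (0.00605%) passed, mhc1uba, a classical MHC class I gene, with an adjusted p of 0.00707 by limma. It stood at 106 and 114 CPM in the single mutant libraries numbered 1 and 3 and at 0 in the one numbered 2, and at 0 to 0.418 CPM in the 6 libraries of the other genotypes. With 3 residual degrees of freedom, the larger falls of the csf1rb-heterozygous library could not be shown gene by gene to differ from those of the other genotypes. csf1ra and csf1rb did not pass the number 2 test, with differences of -0.42 (adjusted p = 0.426) and -0.38 (adjusted p = 0.257). csf1rb stood at 8.42 to 14.4 CPM in single mutants, 1.60 to 3.83 CPM in csf1rb-heterozygous mutants and 1.97 to 2.52 CPM in double mutants, so the latter 2 ranges overlapped. csf1ra stood at 0 to 5.10 CPM over the 9 libraries.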

How the data were processed

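The submitters' processing notes name HISAT2 and edgeR as tools and GRCz10 as build, with no versions; the counter, strand setting and annotation were not given in the sources used. The deposited signal is CPM for 16536 genes, scaled per library by the authors; totals of the scaled values differ from 1e6 by the scaling factors. All values were whole multiples of 1 read within 0.001 reads, which gave 12.8 to 15.2 M reads in the mutant libraries. The authors' log2 CPM, deposited beside them, was not used for tests, nor were 11 columns of ranks. Every listed gene had over 1 CPM in 3 or more libraries, which shows that a filter was applied before deposit.

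limma 3.58.1 (R 4.3.3), with its trend option, was fitted on log2(CPM + 1) to the 9 mutant libraries with genotype and number 2 as terms and 5 residual degrees of freedom. Numbers come from the labels. A test planned for CPM was kept although the values are scaled CPM. edgeR 4.0.16 (quasi-likelihood) and DESeq2 1.42.0 on recovered reads, other pseudocounts, filters and scalings, and each library left out were alternatives. Scripts were tested on simulated data.

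The comparison, the 55 gene lists (1573 of 2200 symbols in the table) and the tests were chosen with earlier results of these data known, among them that number 2 libraries stood apart on the first principal component and that immediate early genes differed by number. Named were the 12 largest falls and 12 largest rises (mean log2 CPM of at least 1, number 2 beyond both others in each genotype), up to 4 called members of each list with the smallest adjusted p, csf1ra and csf1rb; some genes that the rule names are not reported here. Other list members, slc12a5a, sec61a1, srprb, stmn2b, mhc1uba and the symbol families were chosen after their values were seen. Counting intervals were not computed; with 50-nucleotide single-end reads, near-identical copies are uncertain.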

Additional observations from a re-analysis of the deposited data

Results flagged for a closer look

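In 141 quantities (103 named genes and 38 library measures) the 6 mutant libraries numbered 1 and 3 were searched for 1 value far from the rest, by the gap to the nearest value over the whole range, with 0.625 as the limit. 6 were found, and chance gives about 1 in 20. For mtss1lb the double mutant library 1 stood apart (0.868), at 19.8 CPM against 8.36 to 9.4. bin1a (0.641) and gria1b (0.684) were low in the double mutant library 3, at 14.4 and 40.3 CPM. nefla (0.701) was high in the csf1rb-heterozygous library 3, at 273 CPM. The single mutant library 1 had the largest share of CPM in its 10 most abundant genes (13.4%, ratio 0.766) and the most genes at 0 (22, ratio 0.65).

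For mhc1uba the number 2 difference varied between genotypes by the interaction test (adjusted p = 0.00707 by limma). In single mutants the library numbered 2 had 0 reads where the other 2 had 106 and 114 CPM. In the other genotypes all libraries were at or near 0, so a fall could not be seen there. With a single library numbered 2 in each genotype, the test cannot tell a genotype from a single library.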

How the results depend on the processing

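Alternatives were pseudocounts 0.25 and 4, a mean of at least 5 CPM, plain totals, edgeR, DESeq2, no genotype term and number as 3 levels. They gave 1149 to 1516 calls beside 1310. All called genes that were tested kept their direction, which the use of the same libraries largely set. Genes called higher, 54, were 19 with plain totals, 94 with DESeq2, 86 with number as 3 levels and 134 against number 1 in that fit. Fits on the number 2 libraries and 1 other number gave 805 calls (750 lower) against number 1 and 4 (2 lower, 2 higher) against number 3, from 6 libraries with 2 residual degrees of freedom, with 0 of these 4 among the 1310 and 3189 genes at an unadjusted p under 0.05. Without a genotype the calls were 430 (428 lower, 2 higher) without single mutants, 83 (83 lower, 0 higher) without csf1rb-heterozygous mutants and 1292 without double mutants. Leaving out 1 library gave 340 to 1427 calls, 338 to 1350 lower and 2 to 103 higher; the lowest total was without the csf1rb-heterozygous library numbered 2, and the highest count of rises without the double mutant one. Rises were 6 and 22 without the single mutant libraries 2 and 3, and 9, 2 and 20 without the csf1rb-heterozygous libraries 1, 2 and 3. Of 103 named genes, 5 lost their call with edgeR, 4 with DESeq2, 57 without the csf1rb-heterozygous library numbered 2 and 83 without that genotype. Between numbers 3 and 1, the 62 calls became 17 to 78. No paired analysis was possible because the comparison is between the replicate numbers themselves, with genotype as the block. The share called lower was 2.72% of genes under 2 CPM and 2.92% of genes of 100 CPM or more; the part of depth in this was not tested.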
